A study of Drosophila melanogaster with 6 samples.

Results

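The LINC complex, its microtubule linkers and the lamins were described here through 7 genes, Msp300, klar, koi, ens, Khc, Lam and LamC. They were taken by symbol, 1 row each, from the 17807 genes of the deposited table. Messenger RNA of *Drosophila melanogaster* larvae was sequenced in 6 libraries, 3 of Mad knockdown (Dmef2-Gal4>UAS-madRNAi) and 3 of control knockdown (Dmef2-Gal4>UAS-mCherryRNAi). Both groups thus carried the Dmef2-Gal4 driver, which is active in muscle, and an RNA hairpin, directed in the controls against a fluorescent protein that flies lack. Larvae were at the wandering stage of the third instar, and each library came from a pool of 6 to 10 body wall lysates enriched for muscle. Mad is the transcription factor that BMP signalling activates. Nothing in the labels says whether the pools came from separate crosses, so the p-values measure only the spread between these libraries.

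A larval body wall muscle is 1 fibre with many nuclei, which are spread evenly beneath its surface and held apart by microtubules and actin. The link runs through the nuclear envelope. SUN proteins in the inner membrane bind KASH proteins in the outer membrane, and together they form the LINC complex, which reaches from the lamina inside the nucleus to the cytoskeleton outside it. In flies koi encodes a SUN protein, while Msp300 (a nesprin of great length) and klar encode KASH proteins. On the microtubule side ens encodes a microtubule-binding protein that activates kinesin-1, and Khc encodes the motor subunit of kinesin-1. Lam encodes the B-type lamin found in most cells, and LamC the A-type lamin that is prominent in differentiated tissues such as muscle.

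None of the 7 genes passed the threshold after Mad knockdown. All 7 were tested with limma, and none had a Benjamini-Hochberg adjusted p-value under 0.05, against 2.59% of the 10348 genes tested. The edgeR and DESeq2 tests on the recovered counts also called none of the 7, where they called 2.44% and 9.64% of the genes tested. At an unadjusted p-value under 0.05, 2 of the 7 genes passed in limma, koi and LamC, against 19.0% of all genes. With 7 genes that count is too small to set apart from the background. The median log2 fold change of the 7 genes was -0.0089, and that of all genes tested was 0.0054.

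**Figure D1:**
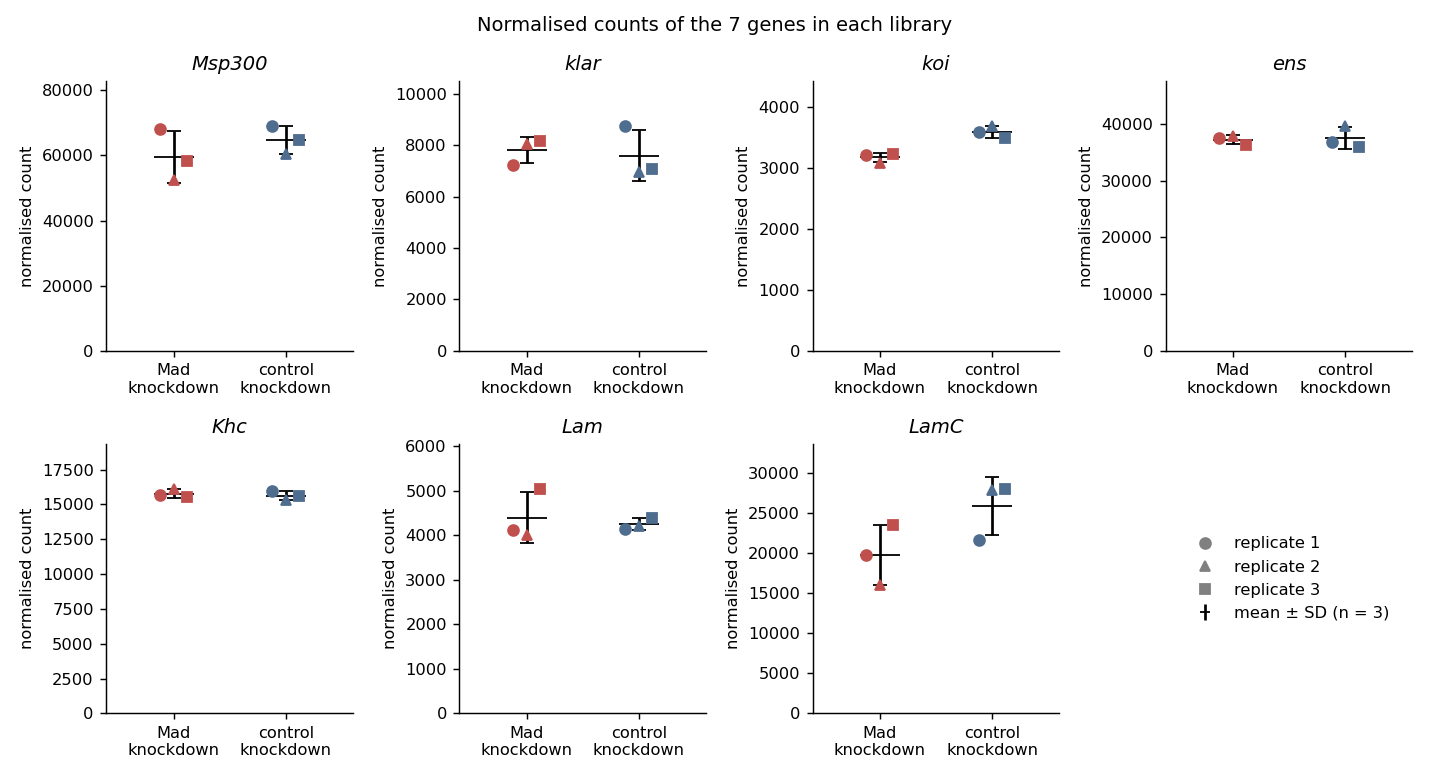
Normalised counts of the 7 genes (y axis, from 0) in the 3 Mad knockdown libraries at left and the 3 control knockdown libraries at right of each panel. Symbols mark the replicate number, and bars give mean ± SD (n = 3 per group). The groups were apart without overlap only for koi, with 3085 to 3224 after Mad knockdown and 3489 to 3684 in controls.

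The SUN gene koi (FBgn0265003, chromosome 2R, 6811019 to 6818199, plus strand) was the only one of the 7 whose groups did not overlap. Its normalised counts were 3209, 3085 and 3224 in Mad knockdown replicates 1 to 3, against 3581, 3684 and 3489 in control replicates 1 to 3. All 3 Mad knockdown libraries were lower than all 3 controls, as in 13.0% of all genes tested. The means were 3173 ± 76.3 after Mad knockdown and 3585 ± 97.4 in controls (SD, n = 3 each), so koi averaged 88.5% of the control level. The log2 fold change was -0.18 (SE 0.055), with a 95% confidence interval from -0.31 to -0.044. The difference was larger than the spread between replicates but missed the threshold, where limma gave an adjusted p of 0.157. An exact two-sided permutation test gave p = 0.1, the smallest that 3 libraries against 3 allow. The scatter of koi was small. Its residual SD on the log2 scale was 0.037, and 2.61% of the genes tested had a smaller one.

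The KASH genes spread more between replicates. Msp300 (FBgn0261836, chromosome 2L, 5100877 to 5207002, plus strand) had 68139, 52356 and 58295 normalised counts in Mad knockdown replicates 1 to 3, against 69045, 60300 and 64772 in controls. Mad knockdown replicate 1 lay inside the range of the controls and the other 2 below it, so the groups overlapped. The log2 fold change was -0.12 (SE 0.114), with a 95% interval from -0.40 to 0.15 and limma gave an adjusted p of 0.616. Leaving out Mad knockdown replicate 2 moved the fold change to -0.036, and leaving out replicate 1 of that group moved it to -0.23. The other KASH gene, klar (FBgn0001316, chromosome 3L, 434083 to 540614, minus strand), had 7237, 8050 and 8186 normalised counts after Mad knockdown, against 8755, 6974 and 7062 in controls. Its highest and its lowest values were both control libraries. The log2 fold change was 0.048, with an interval from -0.20 to 0.30 and limma gave an adjusted p of 0.857. These intervals leave room for a level of 76.0% to 111% of control for Msp300, and of 87.0% to 123% for klar.

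The kinesin side was the most even. Khc (FBgn0001308, chromosome 2R, 16266960 to 16271971, minus strand) had 15641, 16126 and 15553 normalised counts after Mad knockdown, against 15935, 15299 and 15628 in controls. The 6 libraries were interleaved and lay within a few percent of each other, with coefficients of variation of 1.96% after Mad knockdown and 2.04% in controls. Of all genes tested, 1.16% had a smaller residual SD than Khc. The log2 fold change was 0.014, with a 95% interval from -0.11 to 0.14, which corresponds to 92.6% to 110% of the control level.

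The kinesin activator gene ens (FBgn0264693, chromosome 3L, 4122907 to 4134550, minus strand) had 37536, 37837 and 36360 normalised counts after Mad knockdown, against 36865, 39635 and 36000 in controls. The Mad knockdown values all lay inside the range of the controls. The log2 fold change was -0.0089, with a 95% interval from -0.16 to 0.15. For Khc limma gave an adjusted p of 0.926, and for ens one of 0.965. For both genes the interval excludes a change as large as the one estimated for Mad itself, the targeted gene, which stood at -0.57. The intervals of koi, Msp300, klar and Lam exclude it as well, while that of LamC, from -0.79 to -0.0054, includes it.

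**Figure D2:**
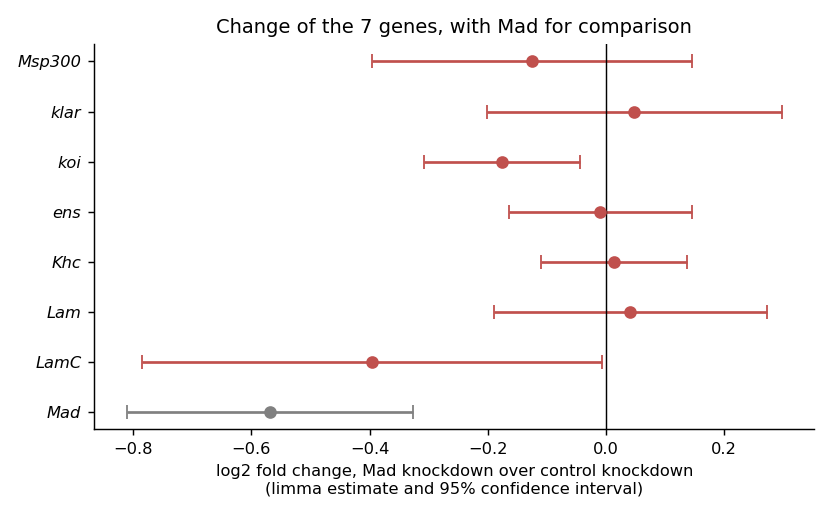
Log2 fold change of Mad knockdown over control knockdown (x axis) for the 7 genes and, in grey, for the targeted gene Mad. Points are limma estimates and bars are 95% confidence intervals, which lie below 0 for koi and LamC before adjustment and cross 0 for the other 5 genes.

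The lamin genes gave unlike estimates. LamC (FBgn0010397, chromosome 2R, 14570810 to 14575771, minus strand) had 19733, 16014 and 23440 normalised counts in Mad knockdown replicates 1 to 3, against 21656, 27790 and 28010 in controls. Mad knockdown replicate 3 lay above control replicate 1, so the groups overlapped. LamC had the largest estimate of the 7 genes, a log2 fold change of -0.40 (SE 0.163), and also the widest interval, from -0.79 to -0.0054. It averaged 76.4% of the control level, and its adjusted p in limma, 0.257, missed the threshold. Leaving out 1 library moved its log2 fold change to -0.25 without Mad knockdown replicate 2 and to -0.53 without Mad knockdown replicate 3.

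Lam (FBgn0002525, chromosome 2L, 5542480 to 5546642, plus strand) had 4127, 3998 and 5045 normalised counts after Mad knockdown, against 4134, 4199 and 4394 in controls. Mad knockdown replicate 3 was the highest of the 6 libraries, and the other 2 Mad knockdown libraries were the lowest. The log2 fold change was 0.042, with an interval from -0.19 to 0.27 and limma gave an adjusted p of 0.868.

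The ratio of LamC to Lam within a library does not depend on how libraries are scaled. Per kilobase of exon this ratio was 7.29, 6.11 and 7.09 in Mad knockdown replicates 1 to 3, against 7.99, 10.1 and 9.72 in control replicates 1 to 3. All 3 Mad knockdown ratios were below all 3 control ratios. The mean was 6.83 ± 0.633 after Mad knockdown and 9.27 ± 1.12 in controls (SD, n = 3 each), a difference of -0.44 on the log2 scale. The exact two-sided permutation test gave p = 0.1, the smallest that the design allows, so the difference cannot reach a threshold of 0.05 here. Leaving out 1 library moved the difference between -0.54 and -0.36.

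The other ratios of partners, computed without a test, overlapped between the groups. Msp300 to koi was 1.62, 1.30 and 1.38 per kilobase of exon after Mad knockdown, against 1.47, 1.25 and 1.42 in controls. The ratio of klar to koi was 1.03, 1.19 and 1.15 after Mad knockdown, against 1.11, 0.861 and 0.920 in controls. The ratio of ens to Khc was 1.56, 1.53 and 1.52 after Mad knockdown, against 1.51, 1.69 and 1.50 in controls.

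Muscle content may bear on the values of the 7 genes, which was not tested. The markers of the labelled tissue did move with the groups. Of 12 muscle marker genes, 11 had a lower estimate after Mad knockdown, with a median log2 fold change of -0.80. limma called 2 of them, Prm (paramyosin) at -0.82 and Tm2 (tropomyosin) at -0.89, both lower, against 1.57% of all genes called lower. The markers summed to 2051421, 1495909 and 2188102 normalised counts in Mad knockdown replicates 1 to 3, against 4190042, 3127338 and 3349059 in controls. The myosin heavy chain gene Mhc averaged 101103 ± 42036 after Mad knockdown and 345499 ± 164023 in controls, and was not called (adjusted p in limma 0.0873). The 12th marker, the muscle transcription factor gene Mef2, whose promoter names the driver, had 46391, 59197 and 53976 normalised counts after Mad knockdown, against 53414, 40824 and 51231 in controls. Mef2 and the marker sls overlapped between the groups, as did 6 of the 7 genes described, while the other 10 markers did not and were lower. Of all genes tested, 24.6% did not overlap, and 13.0% did not overlap and were lower after Mad knockdown. In these bulk lysates fewer muscle cells and less RNA per cell cannot be told apart. Their part in the LamC and koi values was not tested. In the Mad knockdown libraries LamC, koi and the summed markers were all highest in replicate 3 and lowest in replicate 2. Among controls replicate 1 was the lowest in LamC and the highest in summed markers. Control replicate 2 was the highest control in koi and the lowest in summed markers.

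**Figure D3:**
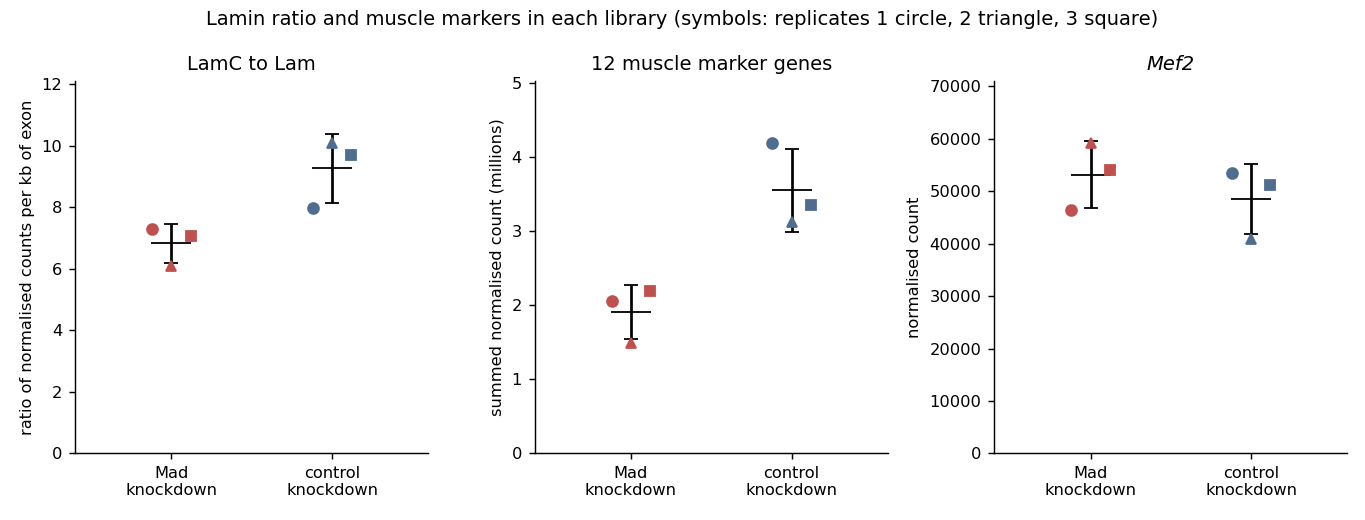
LamC to Lam ratio per kilobase of exon, summed normalised count of 12 muscle marker genes, and normalised count of Mef2, each with Mad knockdown left of control knockdown. Points are libraries and bars mean ± SD (n = 3 per group); the groups are apart in the first and second panels and overlap for Mef2.

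The libraries were deep, from 96639921 to 127220949 recovered counts, with overlapping ranges between the groups. The targeted gene Mad averaged 5015 ± 648 normalised counts after Mad knockdown and 7400 ± 344 in controls, or 67.8% of the control level. In limma its adjusted p was 0.0440, and the call was kept in 10 of the 18 alternatives. The lysates also held other tissues. Genes of epidermis and cuticle summed to between 7684062 and 10720419 normalised counts after Mad knockdown and between 8425859 and 10838703 in controls. Haemocyte markers summed to 81960 to 89106 after Mad knockdown and 93451 to 127498 in controls, and salivary gland glue genes to 16.8 to 145 after Mad knockdown and 279 to 2517 in controls. Both sums were lower in all 3 Mad knockdown libraries. The 6 haemocyte markers were uneven, with 2 estimates higher, 4 lower and a median log2 fold change of -0.086, while all 4 glue genes tested had lower estimates. Fat body, neuron, glia, tendon and adult muscle precursor lists overlapped in their sums, and the sums of 2 tracheal genes were higher in all Mad knockdown libraries, at 1705 to 1765 against 1499 to 1630 in controls. None of these lists had a called gene or a marker at 0 in every library, and their part in the values of the 7 genes was not tested.

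Levels between genes were compared per kilobase of exon. In Mad knockdown libraries LamC averaged 8053 ± 1516 normalised counts per kilobase, ens 6531 ± 137 and Khc 4242 ± 83.0, while in controls they averaged 10538 ± 1472, 6575 ± 333 and 4201 ± 85.5. The B-type lamin and the LINC genes were lower by several fold. After Mad knockdown Lam averaged 1175 ± 153 per kilobase, Msp300 854 ± 114, klar 668 ± 43.8 and koi 595 ± 14.3, while in controls they averaged 1135 ± 36.3, 927 ± 62.6, 648 ± 85.7 and 673 ± 18.3. The values of LamC and ens overlapped after Mad knockdown, where LamC ran from 6536 to 9567 and ens from 6376 to 6635, and they did not overlap in controls. In controls klar and koi overlapped, and over all exons the mean of koi was the higher one. LamC stood above 93.0% of the genes tested in level per kilobase, and koi above 51.8%.

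**Figure D4:**
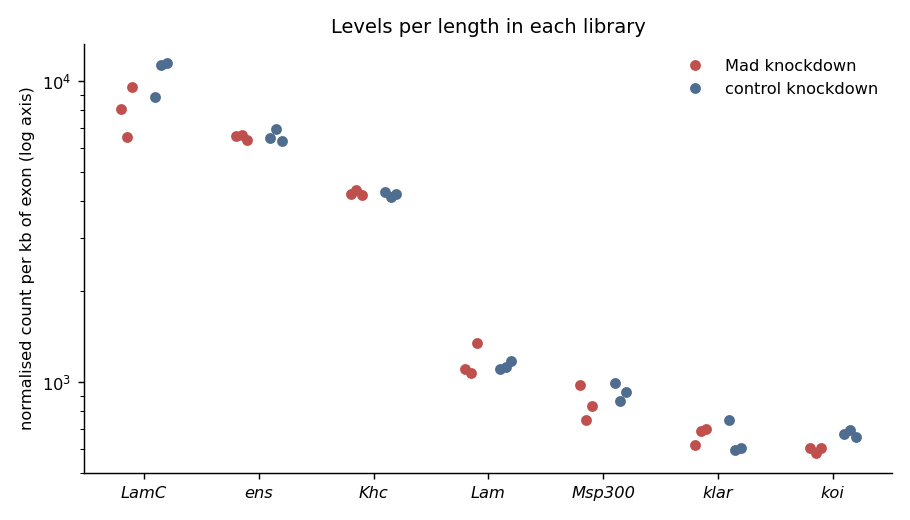
Normalised count per kilobase of exon (log axis) of the 7 genes in each library, with Mad knockdown libraries at left and control knockdown libraries at right of each gene. LamC, ens and Khc lie at 4115 or above in all 6 libraries, and the other 4 genes lie at 1350 or below.

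The gene structures set limits on these levels. Msp300 and klar each span over 100 kilobases, with 106 and 107 kilobases, but their exons differ, at 69.8 kilobases for Msp300 and 11.7 kilobases for klar. Msp300 has 11 annotated transcripts from 2610 to 43121 bases long, so a level over all exons is lower than one over its longest transcript. Divided by the longest transcript, Msp300 averaged 1382 ± 185 per kilobase after Mad knockdown and 1501 ± 101 in controls, above Lam at 1253 ± 163 and 1211 ± 38.7. On that length klar averaged 899 ± 59.0 after Mad knockdown and 873 ± 115.3 in controls, above koi at 742 ± 17.8 and 838 ± 22.8. The order of Msp300 and Lam in both groups, and that of klar and koi in controls, thus depends on the length used. Khc has 1 annotated transcript, ens 12, klar 9, koi 6, Lam 4 and LamC 2, and the gene counts do not part them. LamC lies within ttv, which is on the opposite strand, and shares no exon bases with it. Whether counting used strand is not given in the sources used here, and ttv had 1921, 2110 and 1831 normalised counts after Mad knockdown, against 1946, 1647 and 1725 in controls. Small RNA genes cover 0.381% of the exon bases of Msp300 and 0.546% of those of klar, and the other 5 genes share none.

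Counting error was smaller than the spread between libraries for all 7 genes in both groups. The lowest recovered count was 2935, for koi, where counting alone gives a coefficient of variation of 1.85%. The coefficients of variation of koi between replicates were 2.40% after Mad knockdown and 2.72% in controls, so its scatter was close to the counting limit. LamC varied by 18.8% after Mad knockdown and 14.0% in controls, where counting gives 0.753% at its lowest count.

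The partners of these genes in the nucleus and on microtubules were read from 4 lists with 73 genes in the table and 72 tested. limma called none of the 72, against 2.59% of all genes tested, and edgeR none, against 2.44%. At an unadjusted p-value under 0.05 4 of the 72 passed in limma, against the 19.0% of all genes. DESeq2 called 1, CLIP-190, against 9.64% of all genes. The groups did not overlap for 5 of the 72, against 24.6% of all genes tested. Of these 5, 4 were motor and linker genes that were lower after Mad knockdown, a direction without overlap that 13.0% of all genes tested shared, and the fifth was a pore gene that was higher.

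**Figure D5:**
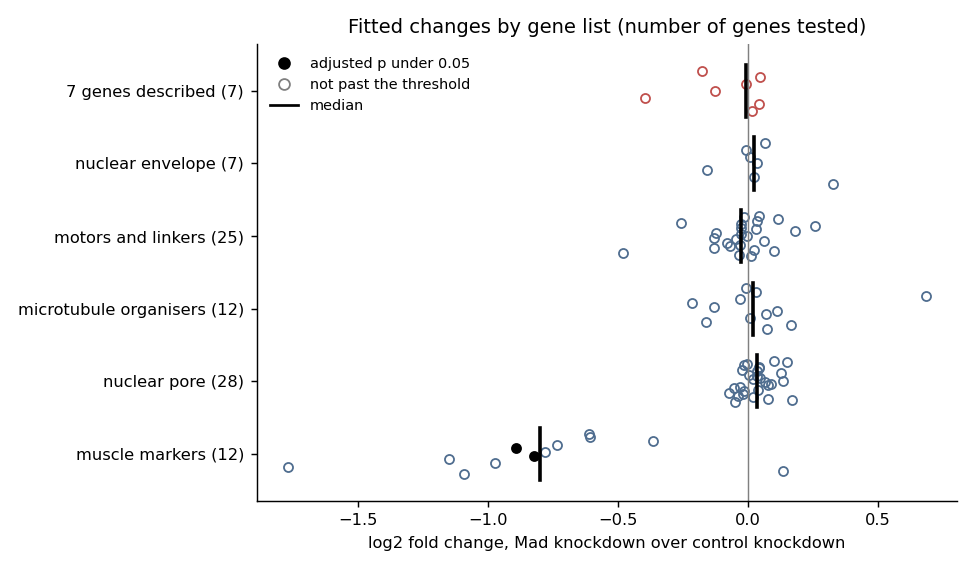
Log2 fold change of Mad knockdown over control knockdown (x axis) for each tested gene of the 7 described, of 4 partner lists and of the muscle markers. Filled points are past the adjusted threshold and vertical bars are medians, which lie from -0.025 to 0.035 for the 4 partner lists and at -0.80 for the muscle markers.

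Among motors and microtubule linkers the median log2 fold change was -0.025 over 25 genes. CLIP-190, which binds the growing ends of microtubules, had 6487, 7041 and 8669 normalised counts after Mad knockdown, against 9868, 10314 and 10580 in controls. All Mad knockdown libraries were lower, at -0.48 (SE 0.110) on the log2 scale, where limma gave an adjusted p of 0.0765. The spectraplakin gene shot, whose protein joins actin to microtubules, had 67467, 52716 and 58618 after Mad knockdown, against 70406, 73326 and 69219 in controls. Its log2 fold change was -0.26 (adjusted p in limma 0.241). The Mad knockdown libraries stood in the same order for shot as for Msp300, with replicate 1 highest and replicate 2 lowest. The controls did not share an order, since replicate 2 was the lowest control for Msp300 and the highest for shot. The other 2 genes without overlap, named after their values were seen, were the dynein genes Dhc64C, at -0.13, and Dlic, at -0.070. The light chain gene Klc, the partner of Khc in kinesin-1, averaged 12761 ± 414 after Mad knockdown and 12212 ± 202 in controls.

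Among nuclear envelope proteins the median was 0.022 over 7 genes. LBR, a receptor for the B-type lamin, had 2170, 1867 and 1699 normalised counts after Mad knockdown, against 1727, 1449 and 1386 in controls. The groups overlapped, at 0.33 (SE 0.123) on the log2 scale, where limma gave an adjusted p of 0.218. The inner membrane protein gene Ote was at -0.16 on the log2 scale (adjusted p in limma 0.485). The other SUN gene, spag4, which is known from the testis, failed the filter, with 0.934 or less after Mad knockdown and 2.08 or less in controls.

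Among microtubule organisers the median was 0.019 over 12 genes. The centrosomal gene cnn averaged 2565 ± 360 after Mad knockdown and 2959 ± 119 in controls, at -0.21 on the log2 scale (adjusted p in limma 0.347). The gamma-tubulin gene gammaTub37C was near the filter, with 13.8 ± 4.41 after Mad knockdown and 8.17 ± 2.46 in controls. Among 28 nuclear pore genes the median was 0.035. Gle1, an mRNA export factor, had 983, 1049 and 1005 normalised counts after Mad knockdown, against 904, 883 and 913 in controls. All Mad knockdown libraries were higher, at 0.17 on the log2 scale (adjusted p in limma 0.255). Sec13, which serves both the pore and vesicle coats, was at 0.15 (adjusted p in limma 0.391).

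The 7 genes did not move as 1 group across the libraries. Over their 21 pairs, Pearson correlations of log2 values over the 6 libraries ran from -0.81 for Khc with LamC to 0.78 for koi with LamC. The 6 libraries share the split into groups, so these values are a description only. Among all genes tested, Mhcl (r = 0.995) and Acer (r = 0.995) followed koi most closely. Acer, which encodes a peptidase related to angiotensin-converting enzyme, was lower by limma, at -0.62 on the log2 scale (adjusted p 0.0252). Mhcl, a myosin-like gene, was at -0.39 (adjusted p in limma 0.0545). The closest to LamC were CG18507 and CG8300 (r = 0.994 for both), to Msp300 Uhg3 (0.991) and Lgr1 (0.988), and to Lam Ns1 (0.994) and rho-7 (0.985). The closest to Khc were BI-1 (0.997) and Alg-2 (0.988), to ens CG10623 (0.979) and RabX4 (0.972), and to klar snoRNA:Psi28S-2442a (0.986) and Tet (0.965). How close a match chance would give among 10348 genes was not tested.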

How the data were processed

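The deposited signal is a table of gene counts that the authors normalised, with 1 column per library and no pooling. The submitters' processing notes name the genome build dm6; the aligner, counter, annotation and strand setting are not given in the sources used here. In each column the deposited values were whole multiples of 1 step (100% within 0.001), which gave back the counts and size factors from 0.820 to 1.10. Genes were matched by identifier to Ensembl release 115 (BDGP 6.54, dm6 coordinates), and 97 of 17807 were not in it.

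log2(normalised count + 1) was taken for genes that reached 10 in 3 or more of the 6 libraries and fitted with limma 3.58.1 (R 4.3.3, trend, no covariate, two-sided), and p-values were adjusted over all 10348 genes tested by Benjamini-Hochberg. Fold changes on this scale understate changes of low genes. The recovered counts were also tested with edgeR 4.0.16 (quasi-likelihood) and DESeq2 1.42.0. The fits were tested on simulated data. Exon lengths are unions over transcripts.

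The 7 genes and all lists were chosen with earlier results of these data known. Named partners were the called genes, or the 2 with the smallest adjusted p-value per list, and for each of the 7 genes the 2 most correlated genes. Klc, spag4, Dhc64C and Dlic were named outside this rule. Alternatives were pseudocounts, filters, scalings, fits, tools, a replicate block and leaving out each library. RefSeq synonyms matched 2 list names, and 2 stayed unmatched.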

Additional observations from a re-analysis of the deposited data

How the results depend on the processing

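The count of called genes among the 7 was 0 in all 18 alternatives, edgeR and DESeq2 included. The adjusted p-value ran from 0.119 to 0.341 for koi and from 0.135 to 0.496 for LamC, and both kept a negative estimate in all 18, from -0.20 to -0.16 for koi and from -0.53 to -0.25 for LamC. Msp300 was negative in all 18, with an adjusted p of 0.367 or more. The genes klar, ens, Khc and Lam changed sign in at least 1, with an adjusted p of 0.403 or more throughout. An unadjusted p-value under 0.05 was kept in 17 of 18 for koi and in 8 of 18 for LamC. The number of all genes called was 268, and it was 138 in limma without a trend, 998 in DESeq2 and 117 with the replicate block. It ran from 43 to 193 when 1 library was left out. Fits without 1 library rest on 5 libraries, and the cause of these differences in number was not tested. The count of partner genes called was 0, and 1 in DESeq2 and without Mad knockdown replicate 3, in both cases CLIP-190; leaving out 1 library gave 0 to 1. The LamC to Lam difference kept its sign throughout, and with the replicate block (sign flips, smallest possible p = 0.25) it was -0.44 with an exact p = 0.25. The call of Mad was lost in 8 of 18. No pairing by replicate number was assumed, since same-numbered libraries deviated with correlations of -0.14, -0.066 and 0.037. With 3 libraries a group, the intervals of LamC, Msp300 and klar are wide, reaching down to 58.0%, 76.0% and 87.0% of the control level.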
